A study of Mus musculus with 6 samples.

Results

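Alternative 3′ splice sites are acceptor sites that compete for the same upstream donor, so that the downstream exon begins at one position or at another. In hepatocytes of mice on a low-fat or a high-fat diet, 1113 pairs of such sites more than 12 nt apart were measured on both diets. They lay in 964 genes. The pairs were taken from local splicing variations (LSVs), the unit of the program MAJIQ: 1 exon and every junction or retained intron that joins it on one side. A member was an LSV present in both diets' tables that was marked as an alternative 3′ splice site only, held no retained intron and had exactly 2 junctions. The rule left 1135 of the 26910 LSVs found on both diets, and pairs of junctions listed under more than 1 overlapping gene were counted once. No value of splicing entered the rule. In each of the 1113 pairs both junctions left the same donor. The LFD table held a further 242 LSVs of this kind that were not in the HFD table. The HFD table held 23 that were not in the LFD table. The same shares over all LSVs are not given here, so these counts do not describe distant sites in particular.

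The mice were male C57BL/6J animals raised on chow with 13.5% fat. From the age of 8 weeks they received a low-fat diet (LFD, 10% fat) or a high-fat diet (HFD, 60% fat) for 12 weeks. Stranded mRNA libraries were made from their isolated hepatocytes, 3 per diet. The tables hold 1 value per junction for each diet, pooled over its 3 libraries. They therefore carry no spread between animals, and the read depth of each library is unknown. PSI, the fraction of the LSV's reads that use a junction, is given with the posterior SD of the pooled estimate, which covers reads and not animals. An LSV was found for 9 of 9 hepatocyte markers, against 3 of 9 macrophage, 4 of 8 endothelial, 1 of 8 stellate and 1 of 5 bile duct markers. Having an LSV depends on a gene's junctions as well as its reads, so these counts do not measure the purity of the cells. The tables hold no expression levels.

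An intron's 3′ end is recognised through a branch point, a tract rich in pyrimidines and an AG dinucleotide at the boundary, bound in turn by the branch point protein Sf1 and the U2af subunits. When 2 acceptors lie close together, the spliceosome chooses between them after the branch point has been set, and sites further apart can have branch points and tracts of their own. The proximal acceptor gives the shorter intron and the longer exon. The stretch between the sites is then exon sequence if the proximal site is used and intron if the distal site is used, so its length decides whether the reading frame continues past it.

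The stretches below are shown because they belong to events whose use differed most between the diets or was most evenly divided. They were read from GENCODE M21 transcripts on GRCm38, which is the build mm10 of the tables. Capitals mark the stretch between the acceptors, which is retained when the proximal site is used. The lower-case letters are the last 15 bases of the upstream exon and the first 15 bases of the exon shared by both forms. The first set passed the PSI rule given further on.
Atp13a1, chr8:69799762-69799831, plus strand: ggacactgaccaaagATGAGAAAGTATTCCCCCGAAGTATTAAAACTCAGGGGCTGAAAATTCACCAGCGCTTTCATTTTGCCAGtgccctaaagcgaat
Pank4, chr4:154978921-154978954, plus strand: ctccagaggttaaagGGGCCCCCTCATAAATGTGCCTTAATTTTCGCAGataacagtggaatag
Cdc27, chr11:104526167-104526184, minus strand: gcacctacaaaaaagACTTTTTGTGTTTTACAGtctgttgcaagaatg
In the second set the stretch is a multiple of 3 long and both forms are annotated as protein-coding.
Usp9x, chrX:13116609-13116623, plus strand: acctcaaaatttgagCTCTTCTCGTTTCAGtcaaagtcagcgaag
Uxs1, chr1:43805675-43805689, minus strand: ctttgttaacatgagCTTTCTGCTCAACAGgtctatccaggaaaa
Stau1, chr2:166955113-166955130, minus strand: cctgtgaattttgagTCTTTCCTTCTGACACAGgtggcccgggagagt
Rbm39, chr2:156154272-156154289, minus strand: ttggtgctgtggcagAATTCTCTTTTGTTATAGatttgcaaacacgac
Hif1a, chr12:73941688-73941729, plus strand: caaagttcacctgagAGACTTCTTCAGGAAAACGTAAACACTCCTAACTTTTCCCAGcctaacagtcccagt
In the third set the stretch shifts the reading frame.
Rab4a, chr8:123830233-123830270, plus strand: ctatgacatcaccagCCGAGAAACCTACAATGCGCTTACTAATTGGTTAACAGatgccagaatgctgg
Stat3, chr11:100889541-100889590, minus strand: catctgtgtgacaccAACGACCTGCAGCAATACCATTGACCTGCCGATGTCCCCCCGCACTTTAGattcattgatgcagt
Each of these stretches ends in AG, the last bases of the intron when the distal acceptor is used. The 15-nt stretch of Usp9x and the 18-nt stretches of Cdc27, Stau1 and Rbm39 are so short that they hold little beyond the tract and AG of the distal acceptor, and these bases become codons when the proximal site is used.

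The distances between the acceptors ranged from 13 to 4094 nt, with a median of 49 nt and quartiles of 25 and 94 nt. Most pairs had a dominant site. The distal site was dominant at 484 of 1113 events, where the shorter junction had a mean PSI over the diets under 0.05, and the proximal site was dominant at 474, where it was over 0.95. Both sites were used at 155 events (13.9%, exact 95% binomial interval 11.9 to 16.1%), with a mean PSI from 0.05 to 0.95. The proximal site was the major one on both diets, with a PSI over 0.5, at 561 events (50.4%, interval 47.4 to 53.4%). PSI in these tables cannot fall below 0.0125 or exceed 0.9875, so a dominant site is one whose rival was at or near that limit. All intervals of shares given here treat events as units and cover their number only.

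Closely spaced acceptors were divided otherwise. Among the 731 pairs at most 12 nt apart, known as tandem acceptors, the proximal site was the major one on both diets in 84.1% (81.3 to 86.7%), and both sites were used in 29.8% (26.5 to 33.3%). Neither interval overlaps that of the distant pairs. Among 1157 pairs of alternative 5′ splice sites that share an acceptor, both sites were used in 18.5% (16.3 to 20.9%), and the junction of the shorter intron was major on both diets in 42.8% (39.9 to 45.7%).

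**Figure D1:**
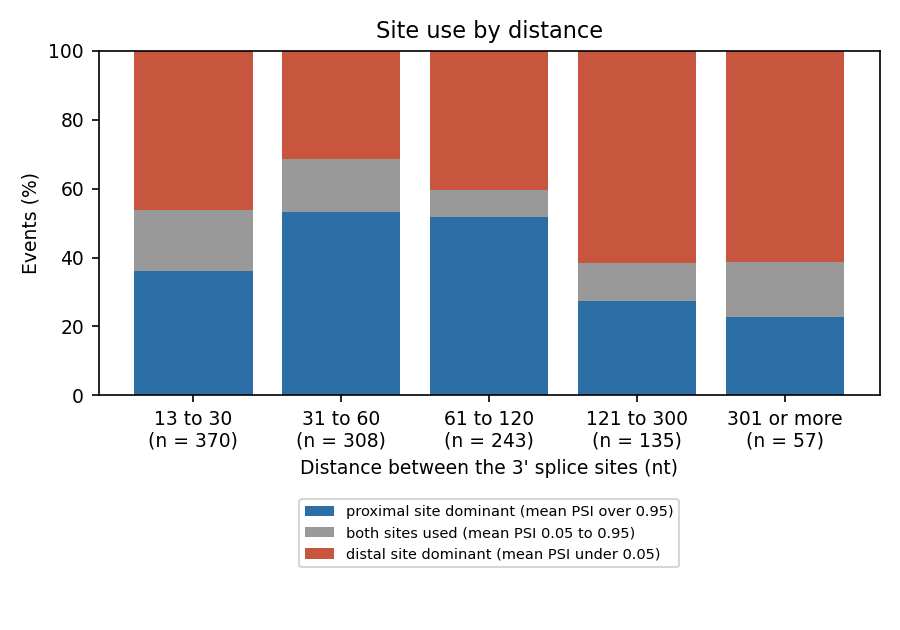
Bars give the share of events in percent for 5 ranges of the distance between the acceptors in nt, divided into events with a dominant proximal site, events with both sites used and events with a dominant distal site, with n the number of events. The distal site was dominant at 31.5% of events 31 to 60 nt apart and at 61.5% of those 121 to 300 nt apart.

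Use varied with distance. At 13 to 30 nt, both sites were used in 65 of 370 events (17.6%). The share was 15.3% of 308 events at 31 to 60 nt and 7.82% of 243 events at 61 to 120 nt. It was 11.1% of 135 events at 121 to 300 nt and 15.8% of 57 events beyond. The proximal site was dominant at 53.2% of events 31 to 60 nt apart, but at 27.4% of those 121 to 300 nt apart and at 22.8% of those further apart. The plot of site use by distance shows the distal site as the dominant one in most pairs more than 120 nt apart.

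At the boundary of the rule, the 15 events at 13 nt had no member with both sites used, and their differences between the diets ran from -0.0185 to 0.0336. The 22 events at 12 nt, just outside, had 9 with both sites used, and differences from -0.166 to 0.0651. The neighbouring distances showed no such break. Inside the rule, both sites were used at 4 of 12 events at 14 nt and at 8 of 28 at 15 nt. Outside it, they were used at 3 of 12 events at 10 nt and at 2 of 10 at 11 nt. The members at 13 nt nearest to equal use were Rnf123 (PSI 0.0126 on LFD and 0.0462 on HFD), Dpp7 (0.0313 and 0.0127) and Mtdh (0.0125 and 0.0269). The nearest pairs outside, at 12 nt, were Gtf2i (0.546 and 0.524), Papd4 (0.589 and 0.549) and Ptpn11 (0.332 and 0.398).

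Frame went with what the annotation holds for the pair. Annotated here means present in GENCODE M21. The deposited tables mark none of these junctions as de novo, so the annotation that the authors used may hold those that are absent from it. Over all 1113 events the distance was a multiple of 3 in 38.6% (35.8 to 41.6%). It was a multiple of 3 in 47.7% of the 155 events with both sites used (39.7 to 55.9%) and in 25 of the 34 events with a mean PSI from 0.2 to 0.8 (73.5%, 55.6 to 87.1%). Other classes also had higher shares with both sites used: 49.1% against 38.4% for alternative 5′ splice sites and 85.3% against 55.0% for tandem acceptors. Over all LSVs with 2 spliced junctions the shares were 40.8% and 35.2%. Of the 155 stretches, 8 lay in a 5′ UTR and 4 in a 3′ UTR, where no frame is read. Both sites were used and both junctions belonged to protein-coding transcripts at 71 events, some of them in UTRs. The distance was a multiple of 3 at 53 of these (74.6%, 62.9 to 84.2%). Where both sites were used and both junctions annotated, but only 1 of them in a protein-coding transcript, it was at 5 of 33 (15.2%, 5.11 to 31.9%). The other junction of those 33 events occurred in transcripts annotated for nonsense-mediated decay, the pathway that degrades mRNAs with an early stop codon, at 23 events. That annotation depends on an early stop codon, which a shifted frame can create. The annotation classes and the frame are therefore not independent. The junction of the protein-coding transcript was the major one on LFD at 32 of the 33.

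**Figure D2:**
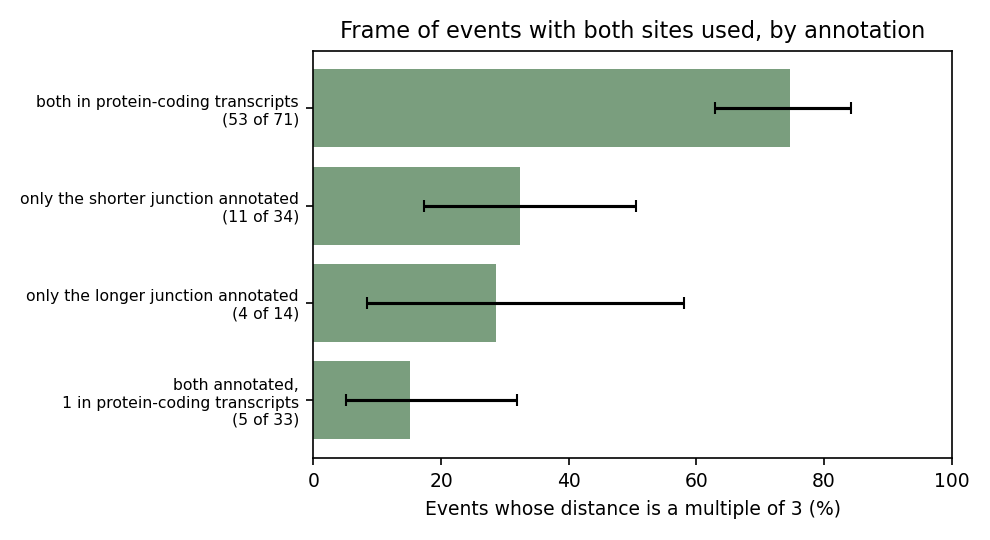
Bars give the percentage of events with both sites used whose distance is a multiple of 3, by GENCODE M21 annotation of the 2 junctions, with exact 95% binomial intervals as error bars and the counts beside the labels. The share was 74.6% with both junctions in protein-coding transcripts and 15.2% with 1 of them there. The 4 classes with at least 10 events are drawn, and the classes are not independent of frame.

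Annotation and use went together as well. Both sites were used at 27.6% of the 257 events with both junctions in protein-coding transcripts, at 12.6% of the 261 with 1 of them there, at 11.9% of the 286 with only the shorter junction annotated, and at 4.81% of the 291 with only the longer one annotated. Among events with both junctions in protein-coding transcripts, the frame was kept in 63.5% where the proximal site was dominant (n = 104) and in 62.2% where the distal site was (n = 82). These intervals, 53.4 to 72.7% and 50.8 to 72.7%, overlap that of the 71 events with both sites used. Of the 1113 stretches, 619 lay wholly in coding sequence of the transcript that retains them, 75 crossed a boundary of it, 20 lay in a 5′ UTR, 23 in a 3′ UTR and 67 in transcripts without a coding sequence, and for 309 no annotated transcript with the shorter junction held the whole stretch in 1 exon.

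A stretch can also carry a stop codon. Where the longer junction was in a complete protein-coding transcript and the stretch was annotated, it was read in the frame in which the upstream exon enters it. A stop codon occurred within the stretch at 27 of 150 events whose distance was a multiple of 3 (18%, median distance 39 nt) and at 71 of 147 events whose distance was not (48.3%, median distance 55 nt). With both sites used, the counts were 6 of 47 and 8 of 17, with median distances of 30 and 35 nt. The frame-keeping stretches of Cdc27, Uxs1, Usp9x, Stau1, Rbm39 and Hif1a printed above held none. The stretch of Stat3 held none either, although its 50 nt shift the frame.

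The sequence before each acceptor went with its use. The distal AG could be read at 804 events and was present in 802. The proximal AG could be read only at the 198 events where some transcript covers the intron there, and was present in 195. In the 20 nt that end with the distal site, the 18 bases before AG had a median pyrimidine share of 72.2% where that site was dominant (quartiles 66.7 and 83.3%, n = 165), 72.2% where both sites were used (quartiles 61.1 and 77.8%, n = 110) and 66.7% where the proximal site was dominant (quartiles 61.1 and 72.2%, n = 431). Before the proximal site the order was turned round. The median was 72.2% where the proximal site was dominant (quartiles 66.7 and 83.3%, n = 78). It was 72.2% where both sites were used (quartiles 66.7 and 81.9%, n = 34). Where the distal site was dominant it was 66.7% (quartiles 56.9 and 76.4%, n = 86). The quartile ranges of the groups overlapped before either site.

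**Figure D3:**
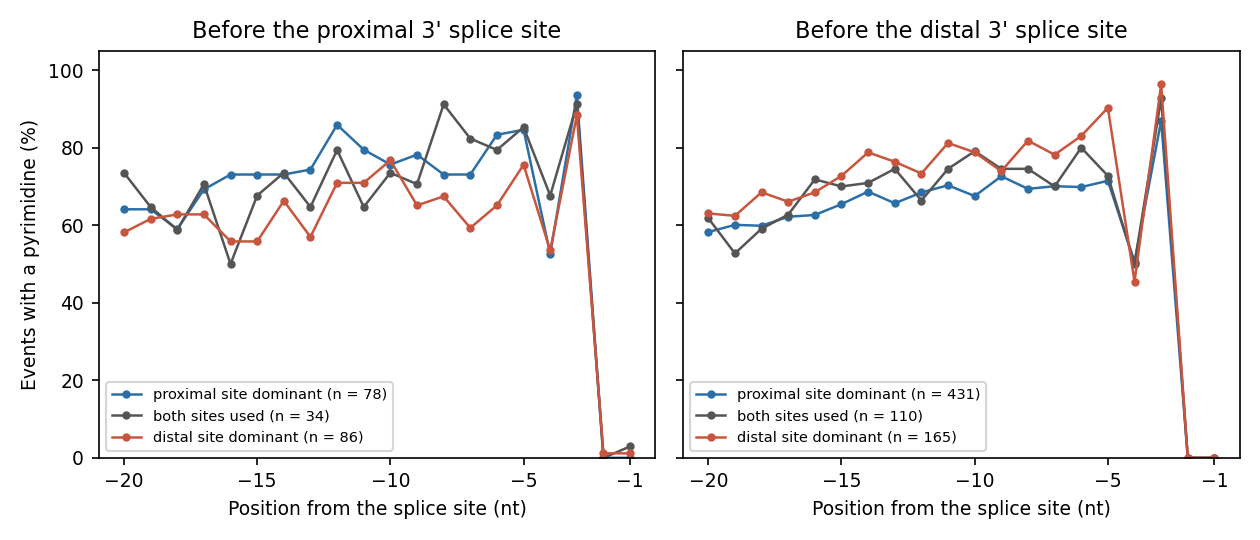
Lines give the percentage of events with a pyrimidine at each position, counted in nt back from the proximal (left) and distal (right) 3′ splice site, by which site was dominant, with n the number of events. Before the distal site, the line of events with a dominant distal site runs above that of events with a dominant proximal site at all but 1 of the 18 positions before AG.

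The base just before AG was a pyrimidine at 96.4% of dominant distal sites and at 87.0% of distal sites whose rival was dominant. For proximal sites the shares were closer, 93.6% of dominant ones and 88.4% of those whose rival was dominant. A further AG within those 18 bases occurred before 13.9% of dominant distal sites and before 21.1% of distal sites whose rival was dominant. Before the proximal site it occurred at 19.2% of dominant sites and at 36.0% of those whose rival was dominant. The motif AG was searched on the transcribed strand only. Distal windows could be read only where the shorter junction is annotated and the distance is at least 20 nt. Proximal windows could be read only where a transcript retains the intron or starts upstream, so the groups are not random samples of the events.

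Pairs with both sites used had no common direction of change between the diets. Over the 155 events with both sites used, the median difference of the shorter junction, HFD minus LFD, was -0.0020 (binomial interval of the median -0.0165 to 0.0149), with 77 higher and 78 lower on HFD. Its quartiles were -0.0512 and 0.0460. The same median over the 2169 LSVs with 2 spliced junctions and both used was 0.00094. The median size of the difference was 0.0499 against 0.0401 over those LSVs, and 78 of the 155 differences were under 0.05. The median posterior SD of these events was 0.0250 on LFD and 0.0280 on HFD, and it was larger on HFD at 65.2% of them. Outside these 155 events no difference exceeded 0.0732. The limits of PSI in the tables and the range of mean PSI leave little room for a larger one there, so this is no result about those events.

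A difference was called under what is here named the PSI rule. It asks for a change in PSI of at least 0.2 whose 95% range, from the posterior variances of both diets together, leaves out 0. The rule was passed by 6 of 1113 events (0.539%), in Atp13a1, Zfp809, Pank4, Cdc27, Mtpap and Cdc42bpb. Over the 12871 LSVs with 2 spliced junctions the rule was passed by 0.28%, and over all 26910 LSVs, counting any entry, by 0.624%. With both sites used, 6 of 155 events passed (3.87%, 1.43 to 8.23%), against 1.66% of such LSVs. The proximal site was less used on HFD at 4 of them and more used at 2. Among LSVs with both junctions used, 1.01% passed downward and 0.645% upward. Of tandem acceptors 2 of 731 passed, and of alternative 5′ splice sites 6 of 1157. The differences between these classes were not tested, and the counts are small.

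**Figure D4:**
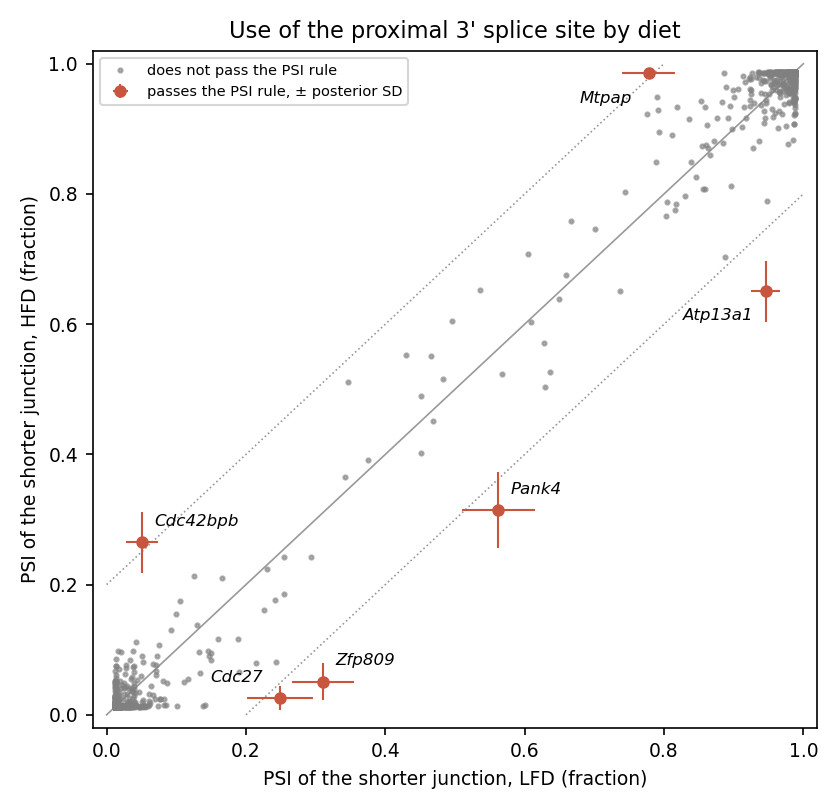
Each point is 1 of the 1113 events, with the PSI of the shorter junction (the use of the proximal acceptor, as a fraction) on LFD along the x axis and on HFD along the y axis; red points passed the PSI rule and carry bars of 1 posterior SD, and the dotted lines mark a difference of 0.2. Atp13a1, Pank4, Cdc27 and Zfp809 lie below the lower dotted line, and Mtpap and Cdc42bpb above the upper one.

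Atp13a1 encodes a P-type ATPase of the endoplasmic reticulum that removes misplaced transmembrane proteins. Its proximal acceptor on chromosome 8 had a PSI of 0.946 ± 0.021 (posterior SD) with LFD and 0.651 ± 0.046 with HFD, a difference of -0.296. The distal site, 70 nt downstream, thus carried 0.0539 of the reads on LFD and 0.349 on HFD. Its junction is in no GENCODE M21 transcript, and the 70 nt shift the reading frame. In the authors' deposited table of PSI differences (dPSI), the same junction has 0.947 and 0.648. In the authors' deposited table of the program JUM, another program for quantifying splicing, the change was -0.285, with an adjusted p = 0.0110.

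In Pank4, a pantothenate kinase relative with phosphatase activity that limits coenzyme A synthesis, the choice was between acceptors 34 nt apart on chromosome 4. The proximal site had a PSI of 0.562 ± 0.052 with LFD and 0.314 ± 0.059 with HFD. It was the major site on LFD and the minor one on HFD. The proximal form is annotated as protein-coding and the distal form for nonsense-mediated decay. In the authors' deposited table of JUM the change was -0.251, with an unadjusted p = 0.0266 and an adjusted p = 0.304.

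Zfp809 is a zinc finger protein that silences retroviral sequences. Its acceptors lie 174 nt apart on chromosome 9, and the proximal one had a PSI of 0.311 ± 0.045 with LFD and 0.050 ± 0.028 with HFD. Here the annotation is the other way round. The proximal form is annotated for nonsense-mediated decay or as a processed transcript, its stretch holds a stop codon, and the distal form, the major one on both diets, is protein-coding. In the authors' deposited table of dPSI the proximal junction went from 0.314 to 0.050.

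Cdc27 encodes a subunit of the anaphase-promoting complex, the ubiquitin ligase that drives exit from mitosis. Its proximal acceptor had a PSI of 0.249 ± 0.047 with LFD and 0.025 ± 0.018 with HFD. Both forms are protein-coding, and the 18 nt between the sites keep the frame and hold no stop codon. The authors' deposited table of dPSI gives 0.248 and 0.025.

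The pairs with more proximal use on HFD were those of Mtpap and Cdc42bpb. In Mtpap, the mitochondrial poly(A) polymerase, the acceptors lie 19 nt apart, and the proximal site had a PSI of 0.778 ± 0.038 with LFD and 0.985 ± 0.009 with HFD. Its proximal junction is in protein-coding transcripts, but also in transcripts annotated for nonsense-mediated decay or with a retained intron. Its distal form is annotated for nonsense-mediated decay or as a processed transcript. The authors' deposited table of dPSI gives 0.776 and 0.992 for the same junction. In Cdc42bpb, a kinase that acts on actomyosin downstream of Cdc42, the acceptors lie 140 nt apart on chromosome 12, and the proximal site had a PSI of 0.051 ± 0.023 with LFD and 0.265 ± 0.047 with HFD. The proximal junction of Cdc42bpb is in no GENCODE M21 transcript.

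In the 3 events of this group with a protein-coding form and an annotated non-coding or decay form, the protein-coding form had a lower PSI on HFD in Pank4 and a higher one in Zfp809 and Mtpap. Over the 33 events of that annotation class with both sites used, the junction of the protein-coding transcript was higher on HFD at 19, with a median difference of 0.0110.

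With a minimum difference of 0.1 in place of 0.2, 23 of 1113 events passed (2.07%), 9 of them higher and 14 lower on HFD, against 1.95% of LSVs with 2 spliced junctions. Among events with a posterior SD under 0.05 on each diet, the 15 largest differences in each direction are described next, grouped by gene function after their values were seen.

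**Figure D5:**
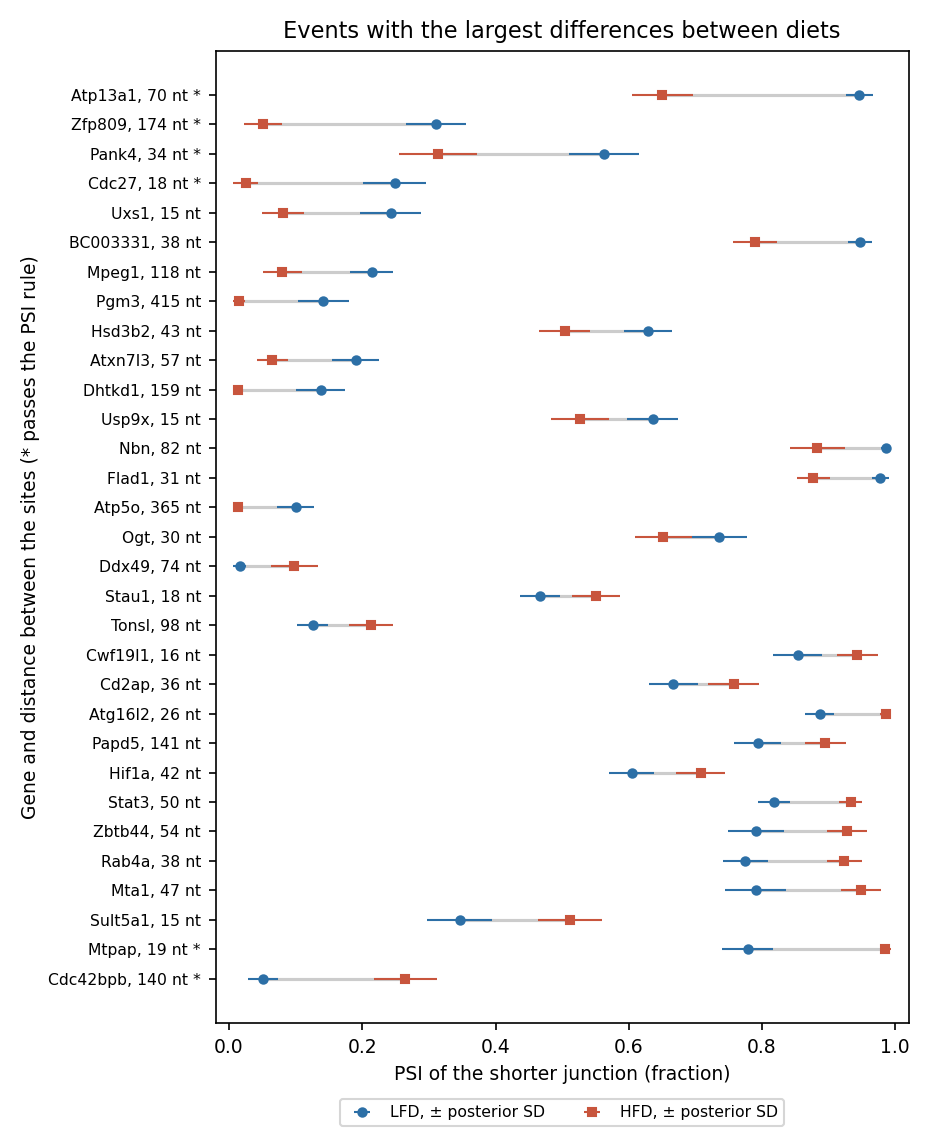
For the events of the named set (gene and distance between the acceptors in nt on the y axis), the PSI of the shorter junction is shown as a fraction on LFD (blue circles) and HFD (red squares), with bars of 1 posterior SD and asterisks for events that passed the PSI rule. Proximal use was lower on HFD in the upper rows, from Atp13a1 to Ogt, and higher in the lower rows, from Ddx49 to Cdc42bpb.

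Among transcription factors, Stat3 carries interleukin-6 signals to acute phase genes in hepatocytes. Its proximal acceptor yields the alpha form, and the distal one yields the beta form, whose frame-shifted end lacks the transactivation domain. The proximal junction had a PSI of 0.818 ± 0.024 with LFD and 0.933 ± 0.017 with HFD. The beta junction was thus at 0.182 on LFD and 0.0669 on HFD. The difference of 0.115 was 3.86 times its posterior SD and missed the PSI rule by its size. The authors' deposited table of JUM gives 0.0834, with an unadjusted p = 0.0436 and an adjusted p = 0.384. A further pair of Stat3 acceptors, 78 nt apart, used the proximal site at the highest PSI the tables hold on LFD and just under it on HFD. Hif1a, the oxygen-regulated transcription factor, had a PSI of 0.605 ± 0.034 with LFD and 0.708 ± 0.037 with HFD at acceptors 42 nt apart.

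Among chromatin and RNA factors, Mta1, a subunit of the nucleosome remodelling and deacetylase complex, had a PSI of 0.790 ± 0.045 with LFD and 0.949 ± 0.030 with HFD at sites 47 nt apart. The zinc finger gene Zbtb44 had 0.791 ± 0.042 and 0.928 ± 0.030 at 54 nt. Papd5, a poly(A) polymerase of nuclear RNA surveillance, had 0.793 ± 0.035 and 0.895 ± 0.031 at 141 nt. These 3 genes used the proximal site as the major one on both diets, and more so on HFD. Atxn7l3, part of the deubiquitinase module of the SAGA complex, lay the other way, with 0.190 ± 0.035 on LFD and 0.065 ± 0.024 on HFD at 57 nt. Stau1, which binds double-stranded RNA, had 0.466 ± 0.030 and 0.551 ± 0.036 at 18 nt, a difference of 1.8 posterior SDs.

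Among genes of trafficking and protein turnover, Rab4a, a small GTPase of recycling endosomes, had a PSI of 0.775 ± 0.034 with LFD and 0.923 ± 0.026 with HFD at 38 nt. Its distal form is annotated for nonsense-mediated decay. The autophagy gene Atg16l2 had 0.886 ± 0.022 and 0.985 ± 0.008 at 26 nt, and its distal junction is not annotated. The adaptor gene Cd2ap had 0.667 ± 0.037 and 0.758 ± 0.038 at 36 nt, 1.7 posterior SDs apart. Usp9x, a deubiquitinase, had 0.636 ± 0.038 and 0.527 ± 0.043 at 15 nt, a difference whose 95% posterior range includes 0.

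Genes of metabolic enzymes were also in the set. Uxs1, which makes UDP-xylose, had a PSI of 0.242 ± 0.046 with LFD and 0.081 ± 0.032 with HFD at sites 15 nt apart. Pgm3, an enzyme of UDP-N-acetylglucosamine synthesis, had 0.142 ± 0.038 and 0.015 ± 0.009 at 415 nt. Dhtkd1, of lysine breakdown in mitochondria, had 0.138 ± 0.037 and 0.014 ± 0.007 at 159 nt. In Pgm3 and Dhtkd1 the proximal junction is not annotated, and on HFD it was near the lowest value that the tables can hold. The same holds for the level on HFD of the ATP synthase subunit gene Atp5o, with 0.10 ± 0.028 and 0.014 ± 0.006 at 365 nt. Flad1, the FAD synthase, had 0.977 ± 0.013 and 0.877 ± 0.025 at 31 nt. Ogt, which adds N-acetylglucosamine to nuclear and cytosolic proteins, had 0.736 ± 0.041 and 0.652 ± 0.043 at 30 nt, 1.4 posterior SDs apart. Hsd3b2, of a family of steroid dehydrogenases with closely similar members, had 0.629 ± 0.036 and 0.504 ± 0.039 in its 5′ UTR at 43 nt. Reads of such paralogs may be divided uncertainly. The sulfotransferase gene Sult5a1 had 0.346 ± 0.049 on LFD and 0.512 ± 0.048 on HFD in its 5′ UTR at 15 nt.

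The remaining events of the set were in 6 genes. Proximal use was lower on HFD in BC003331 (0.947 ± 0.018 against 0.789 ± 0.033), in the DNA repair gene Nbn (0.986 ± 0.007 against 0.883 ± 0.041) and in Mpeg1. Mpeg1 encodes a pore-forming protein of macrophages, and its 5′ UTR event had 0.214 ± 0.032 on LFD and 0.080 ± 0.030 on HFD. Proximal use was higher on HFD in the helicase gene Ddx49 (0.016 ± 0.010 against 0.098 ± 0.035) and in Tonsl (0.126 ± 0.024 against 0.213 ± 0.033). Cwf19l1 had 0.853 ± 0.037 on LFD and 0.943 ± 0.031 on HFD, a difference whose 95% posterior range includes 0. None of the macrophage markers had an event among the 1113, so the part of other cells in the Mpeg1 difference was not tested.

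Of pairs with a PSI from 0.3 to 0.7 on both diets, the 8 with the smallest posterior error included Usp9x, Hsd3b2 and Stau1, which are also among the largest differences described above. The other 5 differed less, which follows from setting apart those among the largest differences. Hnrnpk, a poly(C)-binding protein, had 0.609 ± 0.027 on LFD and 0.603 ± 0.029 on HFD. Its relative Pcbp2 had 0.659 ± 0.030 and 0.676 ± 0.032 in the 5′ UTR. Gnptg, of the lysosomal targeting pathway, had 0.650 ± 0.034 and 0.639 ± 0.042. The splicing factor Rbm39 had 0.452 ± 0.030 and 0.490 ± 0.034, and Ndfip2, an adaptor of ubiquitin ligases, had 0.628 ± 0.030 and 0.571 ± 0.035. In these 5 genes the difference was at most 1.3 posterior SDs.

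Of pairs with a PSI from 0.05 to 0.95 on each diet, the 5 most distant were in Hsd3b2, 1810034E14Rik, Ugt1a6a, Gnai2 and Bap1. The pairs of Pgm3 and Atp5o described above, which were below that range on HFD, are further apart than the last of these. In Hsd3b2 a second pair, 1960 nt apart, had a PSI of 0.893 ± 0.017 with LFD and 0.917 ± 0.015 with HFD. The antisense RNA 1810034E14Rik had 0.876 ± 0.042 and 0.917 ± 0.036 at 948 nt. Ugt1a6a, a glucuronosyltransferase of a locus whose genes share exons, had 0.939 ± 0.010 and 0.937 ± 0.010 at 745 nt. The G protein subunit gene Gnai2 had 0.803 ± 0.027 and 0.766 ± 0.033 at 383 nt, and the deubiquitinase gene Bap1 had 0.929 ± 0.026 and 0.940 ± 0.024 at 337 nt. None of these 5 pairs differed by more than 1.1 posterior SDs. Of 130 genes with more than 1 event, 5 had a pair of events with both sites used, which were Apba3, Chd4, Anapc5, Atxn7l3 and Hsd3b2.

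The 7 pathway lists held 468 genes, of which 101 had 128 events. Both sites were used at 14 of these events, 8 higher and 6 lower on HFD. None of the 14 passed the PSI rule, against 3.87% of all 155 events with both sites used. At that share, 14 events are too few to set the lists apart. Stat3 was the only one of the 14 with a difference of at least 0.1. The splicing factor list had 21 events and 5 with both sites used, in Acin1, Hnrnpk, Hnrnpm, Rbm39 and Sf1. The largest difference among them was in Acin1, from 0.788 ± 0.035 on LFD to 0.849 ± 0.031 on HFD. The branch point protein Sf1 had 0.846 ± 0.024 and 0.827 ± 0.029. The list for stress, acute phase and inflammation had 21 events and 2 with both sites used, in Stat3 and in Stat5b (0.913 ± 0.025 and 0.981 ± 0.013).

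The list for cholesterol and bile acids had 16 events, with both sites used in Lcat, the plasma enzyme that esterifies cholesterol (0.924 ± 0.013 on LFD and 0.935 ± 0.009 on HFD), and in mevalonate kinase, Mvk (0.254 ± 0.048 and 0.242 ± 0.045). The list for lipid metabolism had 23 events and 1 such pair, in choline kinase Chka (0.944 ± 0.012 and 0.908 ± 0.016). The list for insulin and glucose had 16 events and 1 such pair, in the S6 kinase gene Rps6kb1 (0.028 ± 0.017 and 0.076 ± 0.033). The list for xenobiotic metabolism and nuclear receptors had 19 events and 3 such pairs, in Abcb4, Nr1i3 and Ugt1a6a, with differences from -0.0066 to 0.0343. The list of mitochondrial genes had 12 events, and none had both sites used. Mtpap, Dhtkd1 and Atp5o, described above with both sites used, are outside that list.

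The authors' own comparisons of the same libraries list some of these pairs. Their dPSI table held both junctions of a member in 7 LSVs, of which 4 consisted of the pair alone (0.359% of the 1113). These were Atp13a1, Zfp809, Cdc27 and Mtpap, with the values given above. Of all LSVs found on both diets, 0.36% were listed in that table. The other 3 LSVs also hold a retained intron. Among them, the authors' deposited table gives 0.756 on LFD and 0.963 on HFD for the proximal junction of the ubiquitin ligase gene Trim25, while the pair without the intron had 0.889 ± 0.028 and 0.965 ± 0.020. For Nr4a1 and for an event listed under Gm20388 here and under Fbxo31 there, the authors' deposited table gives 0.031 or less on either diet.

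The authors' deposited table of JUM holds 470 events, all with an unadjusted p of at most 0.0497. It has 87 alternative 3′ splice site events, and 63 of them consist of 2 sites more than 12 nt apart. Of the members, 11 were matched to these by the donor and both acceptors, none by 1 acceptor alone, and 2 of the 11 had an adjusted p under 0.05, against 17.7% of all events in that table. The first was Atp13a1. The second was the haptoglobin gene Hp, where the authors' deposited table gives a change of -0.0016 (adjusted p = 0.0177) and the PSI was at the lowest possible value on both diets. The hepatocyte gene Afm followed, with a change of 0.0194 (adjusted p = 0.0681) in the authors' deposited table and a PSI of 0.0130 with LFD and 0.0514 with HFD. In BC003331 the authors' deposited table gives -0.135 (adjusted p = 0.363), beside a difference of -0.158. For the creatine synthesis gene Gamt, the authors' deposited table gives 0.0206, beside a difference of 0.0327. For the fumarase gene Fh1 and for Creb3l3 and Hgd, the authors' deposited table gives -0.0174, -0.0098 and -0.0043, all with a proximal PSI under 0.04 on both diets. These tables were made from the same libraries, so they are not independent measurements of the diets.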

How the data were processed

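The authors deposited MAJIQ/voila tables of posterior mean PSI and its variance per junction and diet, a dPSI table and a JUM table. The submitters' processing notes name FastQC, STAR and the build mm10, with versions and read minimums not given in the sources used here. The change in JUM is HFD minus LFD, per the file headers, although its title line names NC livers. MAJIQ and JUM were matched by coordinates, with the right end of a JUM junction 2 bases below that of MAJIQ.

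Computed here, with Python 3.11.15, pandas 2.3.3 and scipy 1.17.1, were the pairs, their distances, the differences of PSI, exact binomial intervals (95%) and the annotation on GENCODE M21. The PSI rule was tested on simulated reads without variation between animals. That test cannot show how often differences between animals alone would pass the rule. The members and gene lists were chosen with earlier results of these data known.

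The text names events past the PSI rule, the 15 largest differences per direction with a posterior SD under 0.05, events in the authors' comparison tables, list genes with a difference of at least 0.1, the 3 nearest on either side of 12 nt, the 8 most precise with a PSI from 0.3 to 0.7 and the 5 most distant. Other list members with both sites used, and genes with several such events, were named after their values were seen. An event that the rule names is not reported here. Alternatives are given in the closing section.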

Additional observations from a re-analysis of the deposited data

How the results depend on the processing

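The 6 events past the PSI rule became 23 with a minimum difference of 0.1 and 3 with a distance over 50 nt, which leaves fewer events to test. The count stayed between 4 and 6 under the other alternatives. These were a 99% posterior range, a posterior SD under 0.05 on each diet, both junctions annotated and LSVs counted singly. Multi-copy gene families left out and a mean PSI from 0.05 to 0.95 were the others. The range of mean PSI could not change the count, because a difference of at least 0.2 cannot occur outside it. The share of distances that are a multiple of 3 moved from 38.6% to 47.7% with a mean PSI from 0.05 to 0.95, to 73.5% with 0.2 to 0.8 and to 35.5% with a distance over 50 nt; the cause was not tested. The median difference stayed between -0.0111 and 0, and the share of events with the proximal site as the major one between 48.0% and 50.5%. No paired analysis was possible because the tables pool the 3 libraries of a diet, and for the same reason no replicate could be left out. Read depth is unknown, and a PSI near 0.0125 or 0.9875 is at the limit of the tables.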
